A study of Mus musculus with 4 samples.

Results

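The transcription factors that build and maintain the gene programme of the mouse oocyte, Figla, Nobox, Sohlh1, Sohlh2, Lhx8 and Tbpl2, were compared between the NSN and SN chromatin configurations. The 6 genes were chosen by name, and 5 of them are among the 16861 genes listed in every library. Sohlh1 is not among the listed genes and was not analysed here. The factors fall into 3 classes. Nobox and Lhx8 carry a homeodomain, and the protein of Lhx8 also carries LIM domains. Figla, Sohlh1 and Sohlh2 are basic helix-loop-helix (bHLH) proteins. Tbpl2, also called TRF3, is a relative of the TATA-binding protein (TBP).

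These factors act in the ovary from the primordial follicle onwards. Loss of Figla blocks the formation of primordial follicles, and loss of Nobox, Lhx8, Sohlh1 or Sohlh2 arrests or depletes the oocytes of early follicles. Their known targets include the genes of the zona pellucida, the glycoprotein coat around the oocyte, and the growth factors that the oocyte sends to its granulosa cells. Tbpl2 takes over the role of TBP at promoters in the growing oocyte, where it works with the general factor TFIIA. Late in growth the chromatin of the germinal vesicle (GV) oocyte passes from the non-surrounded nucleolus (NSN) to the surrounded nucleolus (SN) configuration, and transcription ceases, so that the RNA of an SN oocyte is largely RNA made earlier and stored.

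The oocytes came from antral follicles of C57BL/6J females at 3 weeks of age and were stripped of cumulus cells. No treatment or genotype besides the strain is named for either group. Held in milrinone, which keeps meiosis arrested, they were sorted under Hoechst stain into NSN, with diffuse chromatin, and SN, with a chromatin ring around the nucleolus, and oocytes that were neither were left out. Each library held the polyadenylated RNA of 15 oocytes, amplified by Smart-seq2, and 2 NSN and 2 SN libraries are analysed here. No source names the animals behind a library, so the p-values measure the spread between these 4 libraries, which may be technical. Because oocytes were pooled, less RNA of a gene in each oocyte and fewer oocytes holding that RNA cannot be told apart.

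The libraries held 17069772 to 17998361 read pairs, and values are FPKM, the fragments of a gene divided by its length and by the size of the library. Since FPKM is relative to the library, a fall means a smaller share of the library and not necessarily fewer molecules per oocyte. All 8 oocyte markers checked were listed, with a summed level of 20822 to 22313 FPKM in NSN and 14298 to 14947 FPKM in SN. Of 12 granulosa and cumulus cell markers, 8 were listed, and their summed level was 10.1 and 15.1 FPKM in NSN and 15.1 and 15.2 FPKM in SN. Foxl2, Amh, Amhr2 and Wt1 were not among the listed genes. The highest of those listed, Cyp19a1, was at 5.81 and 8.06 FPKM in NSN and at 8.38 and 8.22 FPKM in SN. None of the 5 markers that passed the filter on low values was called, and none of them had an unadjusted p under 0.05. Of these 5, 4 had a fitted change above 0 and 1 below 0, beside 33.3% of all tested genes below 0. A gene was called when limma's moderated test on log2(FPKM + 0.5), over the 11672 genes with a mean of at least 0.5 FPKM, gave a Benjamini-Hochberg adjusted p under 0.05 and the fold change reached 1.2. That test called 7.93% of genes, 1.98% as lower and 5.95% as higher in SN. The median gene stood 0.14 higher in SN on the log2 scale, and after each library was scaled to its median gene, 1.53% were called lower, with 179 genes lower and 78 higher against 231 lower and 695 higher without this scaling.

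Among the 5 listed factors, Nobox was lower in SN and was the only factor called in either direction. Lhx8, Figla and Tbpl2 had fitted changes below 0 and Sohlh2 a change above 0, and none of these 4 passed the test. The median log2 fold change of the 5 factors was -0.15, and 4 of 5 were negative against 33.3% of all tested genes. The SN and NSN libraries did not overlap for 4 of the 5, the exception being Tbpl2, and the same held for 62.6% of all tested genes. The factors' summed level was 532 and 455 FPKM in the NSN libraries and 315 and 313 FPKM in the SN libraries.

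**Figure D1:**
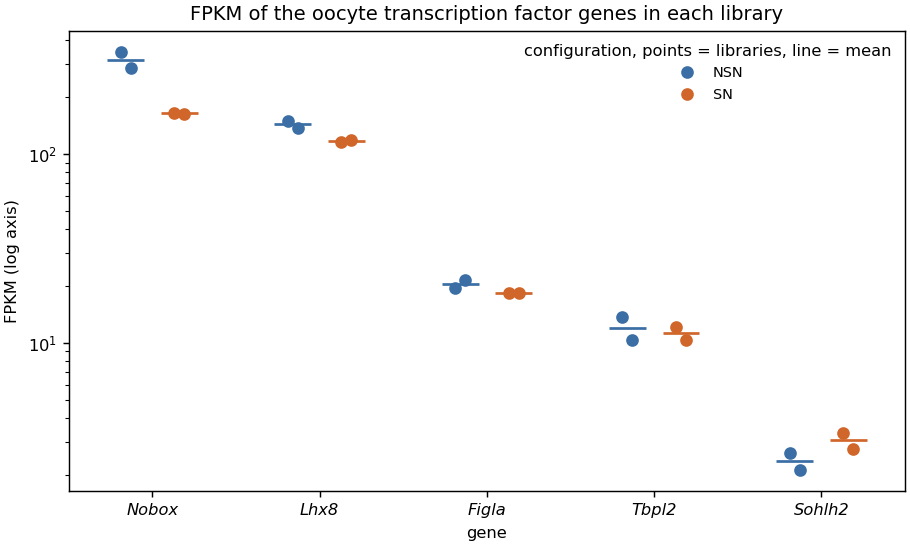
FPKM on a log axis for the 5 listed transcription factor genes, with a point for each library and a line at the mean of the 2 NSN (blue) or 2 SN (orange) libraries. The SN points of Nobox, at 165 and 163 FPKM, lie below both NSN points, at 346 and 285 FPKM, whereas those of Tbpl2 overlap.

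Nobox, the oocyte homeobox factor whose loss depletes the follicle pool, was the most abundant of the factors. Its level was 346 and 285 FPKM in the NSN libraries and 165 and 163 FPKM in the SN libraries. The NSN and SN libraries did not overlap, and the SN libraries were closer to each other than the NSN libraries were. The mean fell from 315 ± 43.3 FPKM (SD, n = 2) in NSN to 164 ± 1.55 FPKM (SD, n = 2) in SN, which is 52.1% of the NSN level. On the log2 scale the change was -0.93 ± 0.10 (SE), with a 95% interval from -1.18 to -0.69 and a limma adjusted p of 0.036. After median scaling the change was -1.09 with a limma adjusted p of 0.045. An exact permutation test over the 4 libraries gave a two-sided p of 0.333, which is the smallest that 2 against 2 libraries allow. The call depended on the set of genes and on single libraries: it was not made over all listed genes (limma adjusted p = 0.054), without the variance trend (0.092), without NSN replicate 1 (0.067) or without SN replicate 2 (0.081), while the change stayed between -1.07 and -0.79 whichever library was left out. Between 5344 and 11407 read pairs stood behind each value, so counting error was small beside the difference between the groups.

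Nobox (ENSMUSG00000029736.16) lies on the minus strand of chromosome 6 at 43280608 to 43286488 in GRCm39, and its exons are shared with no other annotated gene. The 250 bases before its start are shown because the gene carries the main change among the factors, and E-boxes, the CANNTG motif that bHLH proteins bind, are in capitals. The window is chr6:43286489-43286738, minus strand, and is read 5′ to 3′ along the gene.
Nobox: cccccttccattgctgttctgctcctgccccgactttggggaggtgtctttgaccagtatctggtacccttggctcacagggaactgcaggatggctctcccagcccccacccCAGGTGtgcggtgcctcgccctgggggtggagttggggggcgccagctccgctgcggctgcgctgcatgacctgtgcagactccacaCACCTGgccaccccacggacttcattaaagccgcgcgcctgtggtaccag
It held 2 E-boxes, of the letters CAGGTG and CACCTG, with first bases 137 and 50 bases before the start. CACCTG is CAGGTG read on the other strand. No TAATTG or TAATTA, the motifs bound by the protein of Nobox itself, and no TGATTG, the motif of LHX8, were found in these letters. Both strands were searched. An E-box occurs in 64.8% of the windows of 21757 protein-coding genes, so its presence does not set this window apart.

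Lhx8, the LIM homeobox factor needed for oocytes of primordial follicles to survive, was second in level. It was at 150 and 137 FPKM in the NSN libraries and at 115 and 118 FPKM in the SN libraries. The SN libraries again lay below both NSN libraries, with a mean of 117 ± 2.13 FPKM (SD, n = 2) against 143 ± 9.42 FPKM (SD, n = 2). The change of -0.29 ± 0.08 (SE) on the log2 scale did not pass the test, with a 95% interval from -0.48 to -0.10 and a limma adjusted p of 0.069. Its interval does not meet that of Nobox. The call for Lhx8 was made when only genes of at least 5 FPKM were tested (limma adjusted p = 0.033) and in the fits on recovered read pairs (0.028, and 0.0093 with median scaling), while with any library left out it was not called. Lhx8 (ENSMUSG00000096225.9) lies on the minus strand of chromosome 3 at 154011931 to 154036296. The window before its start held none of the motifs searched. Parts of that window are exons of other Lhx8 transcripts, so its letters are not shown.

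Figla, the bHLH factor that switches on the zona pellucida genes, was at 19.5 and 21.4 FPKM in NSN and at 18.4 and 18.3 FPKM in SN. The groups did not overlap, but the gap between them was small beside the counting error of 239 to 291 read pairs. The Poisson 95% interval of the lower NSN library, 17.2 to 22.1 FPKM, holds both SN values. The mean was 20.5 ± 1.33 FPKM (SD, n = 2) in NSN and 18.4 ± 0.104 FPKM (SD, n = 2) in SN. The change of -0.15 ± 0.10 (SE) on the log2 scale had a 95% interval from -0.38 to 0.08 and a limma adjusted p of 0.33, and median scaling gave -0.30 with a limma adjusted p of 0.093. This interval, like that of Lhx8, does not meet that of Nobox.

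Figla (ENSMUSG00000030001.5) lies on the plus strand of chromosome 6 at 85993153 to 85997978, and its window, chr6:85993923-85994172 on the plus strand, falls in an intron of a longer Figla transcript. Its letters are shown to set the gene's own E-boxes, in capitals, beside those of the zona genes that the factor binds.
Figla: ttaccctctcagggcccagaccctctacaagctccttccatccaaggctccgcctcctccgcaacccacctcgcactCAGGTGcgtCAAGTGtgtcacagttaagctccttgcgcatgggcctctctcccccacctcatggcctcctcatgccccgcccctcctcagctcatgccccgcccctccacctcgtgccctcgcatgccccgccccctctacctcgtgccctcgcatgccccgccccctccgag
The window held 2 E-boxes, CAGGTG and CAAGTG, with first bases 173 and 164 bases before the start, and no match to the other motifs.

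Sohlh2, which acts with Sohlh1 upstream of the other factors in germ cells of early follicles, was the least abundant listed factor. It was at 2.60 and 2.13 FPKM in NSN and at 3.35 and 2.75 FPKM in SN, from 90 to 135 read pairs a library. The SN libraries were both above both NSN libraries, by a gap that lies within the counting error of single libraries: the Poisson 95% interval of the higher NSN library, 2.13 to 3.14 FPKM, holds the lower SN value. The mean was 2.36 ± 0.335 FPKM (SD, n = 2) in NSN and 3.05 ± 0.421 FPKM (SD, n = 2) in SN. The change of 0.31 ± 0.17 (SE) on the log2 scale did not pass the test (limma adjusted p = 0.25, 95% interval from -0.09 to 0.71), and median scaling gave 0.18 with a limma adjusted p of 0.53. At this depth neither a small fall nor a rise of up to the upper bound can be told from no change. Sohlh2 (ENSMUSG00000027794.6) lies on chromosome 3 at 55089265 to 55117382, plus strand. The window before its start held 2 E-boxes, and that of Sohlh1 (ENSMUSG00000059625.8, chromosome 2, 25733007 to 25737351, minus strand) held 4.

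Tbpl2, the TBP relative that directs initiation in growing oocytes, was at 13.7 and 10.3 FPKM in NSN and at 12.1 and 10.4 FPKM in SN. The groups overlapped, since both SN values lay between the NSN values. The mean was 12.0 ± 2.36 FPKM (SD, n = 2) in NSN and 11.2 ± 1.24 FPKM (SD, n = 2) in SN. The change was -0.08 ± 0.16 (SE) on the log2 scale, with a 95% interval from -0.46 to 0.29 and a limma adjusted p of 0.75, and median scaling gave -0.23 with a limma adjusted p of 0.42. Its sign rested on single libraries, being 0.11 without NSN replicate 1 and 0.03 without SN replicate 2. Tbpl2 (ENSMUSG00000061809.9) lies on the minus strand of chromosome 2 at 23961733 to 23986607, and its window held 4 E-boxes and no TATAAA on either strand.

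The order of the levels was Nobox, Lhx8, Figla, Tbpl2 and Sohlh2 in each of the 4 libraries. No neighbours in this order overlapped: the lowest Nobox value, 163 FPKM, lay above the highest Lhx8 value, 150 FPKM, and the lowest Figla value, 18.3 FPKM, above the highest Tbpl2 value, 13.7 FPKM. Over the 4 libraries the mean of Nobox was 1.84 times that of Lhx8, Lhx8 was 6.70 times Figla, Figla was 1.67 times Tbpl2 and Tbpl2 was 4.29 times Sohlh2. By mean FPKM, Nobox ranked 296 among the 16861 listed genes and was above 98.2% of them. Lhx8 was above 96.9%, Figla above 84.5%, Tbpl2 above 78.7% and Sohlh2 above 57.7%. These levels depend on the gene length used: the mean of Lhx8 would be 81.8 FPKM in place of 130 FPKM with the longer exonic length of a later annotation, and the order would stay the same.

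A difference between 2 genes inside a library is barely touched by how the library is scaled, and the lead of Nobox over the other factors was smaller in SN. The log2 level of Nobox was above that of Lhx8 by 1.203 and 1.056 in NSN and by 0.52 and 0.46 in SN. Against Figla it stood higher by 4.11 and 3.70 in NSN and by 3.13 and 3.12 in SN. Against Tbpl2 it stood higher by 4.61 and 4.72 in NSN and by 3.72 and 3.91 in SN. In each of these pairs, and against Sohlh2, the difference was smaller in both SN libraries than in both NSN libraries, with a change of -0.64 against Lhx8, -0.78 against Figla, -0.85 against Tbpl2 and -1.24 against Sohlh2. Among Lhx8, Figla and Tbpl2, changes in distance could not be told from the spread of the libraries, which does not show that the distances were kept. The NSN and SN libraries overlapped in all 3 of those pairs, and the changes were -0.14 for Lhx8 against Figla, -0.21 for Lhx8 against Tbpl2 and -0.07 for Figla against Tbpl2. The pairs of these 3 with Sohlh2 also had no overlap, with changes of -0.60 for Lhx8 against Sohlh2, -0.46 for Figla and -0.39 for Tbpl2. Sohlh2 itself was not called and rests on 90 to 135 read pairs a library. Of all 10 pairs, 7 did not overlap, and neither did 57.7% of all pairs of tested genes, so the count itself sets the factors little apart. The pairs share genes and are not independent. For those 7 an exact permutation test gave a p of 0.333, the smallest possible for 2 against 2 libraries.

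**Figure D2:**
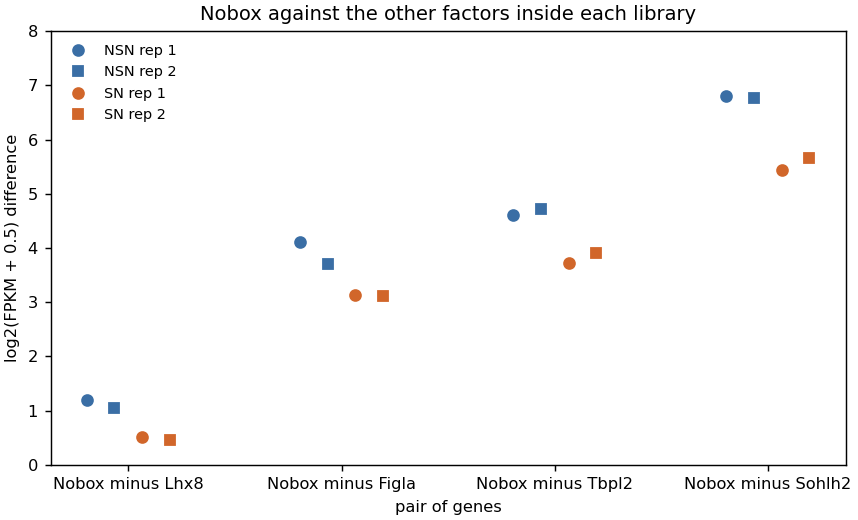
Difference in log2(FPKM + 0.5) between Nobox and each other listed factor inside each library, with NSN in blue, SN in orange, circles for replicate 1 and squares for replicate 2. In every pair both SN points lie below both NSN points, for example 0.52 and 0.46 against 1.203 and 1.056 for Nobox minus Lhx8.

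Of 16 genes known to be bound by these factors or to lose expression without them, all were tested, 6 were lower in SN, 1 was higher and 9 did not pass the test, beside 1.98% lower and 5.95% higher among all tested genes. Calls were more frequent among abundant genes. With only the 5519 genes of at least 5 FPKM tested, 327 were called lower and 1169 higher, and the 16 still gave 6 lower and 1 higher. The median log2 fold change of the 16 was -0.09, beside 0.14 for all tested genes. After median scaling 4 were called lower, Zp1, Zp3, Gdf9 and Bmp15, and none higher. The genes called lower were the zona pellucida genes, the growth factors Gdf9 and Bmp15, and Mos, and all of them are among the most abundant RNAs of the oocyte, from rank 3 for Zp3 to rank 320 for Mos. Genes of the list that were not called reached like ranks, with H1f8 at 2, Rfpl4 at 28 and Oosp1 at 38. Others not called ranked lower, down to Pou5f1 at 3113, and Oog1, which was called higher, was at rank 253. The counts were lower without single libraries, at 0 without NSN replicate 1, 4 without NSN replicate 2 and 1 without SN replicate 2.

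The zona pellucida genes Zp1, Zp2 and Zp3, whose E-boxes FIGLA binds with an E protein partner, encode the structural glycoproteins of the zona. Zp1 was at 1343 and 1185 FPKM in NSN and at 793 and 801 FPKM in SN. Zp2 was at 3065 and 2913 FPKM in NSN and at 2409 and 2089 FPKM in SN. Zp3 was at 7281 and 7063 FPKM in NSN and at 5425 and 5208 FPKM in SN. For all 3 genes both SN libraries were below both NSN libraries. The log2 changes were -0.66 ± 0.08 for Zp1 and -0.43 ± 0.07 for Zp3 (SE, limma adjusted p = 0.036 for both), and -0.41 ± 0.09 for Zp2 (SE, limma adjusted p = 0.045). Zp2 lost its call after median scaling, with a change of -0.57 and a limma adjusted p of 0.054. Under quantile normalisation the change of Zp3 was 0.00, since it held the same rank in every library and quantile normalisation sets equal ranks to the same value.

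The windows of these genes are shown because all 3 fell, with E-boxes in capitals, and in Zp1 also a TATAAA, the first of whose bases lies 30 bases before the start. Those of Zp1 (chr19:10897997-10898246) and Zp2 (chr7:119744514-119744763) are on the minus strand and that of Zp3 (chr5:136008703-136008952) on the plus strand of GRCm39.
Zp1: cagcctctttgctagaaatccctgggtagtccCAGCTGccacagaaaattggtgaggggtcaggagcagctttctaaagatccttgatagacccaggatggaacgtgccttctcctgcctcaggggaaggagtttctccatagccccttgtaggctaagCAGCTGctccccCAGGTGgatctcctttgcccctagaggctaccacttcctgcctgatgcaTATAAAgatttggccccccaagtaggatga
Zp2: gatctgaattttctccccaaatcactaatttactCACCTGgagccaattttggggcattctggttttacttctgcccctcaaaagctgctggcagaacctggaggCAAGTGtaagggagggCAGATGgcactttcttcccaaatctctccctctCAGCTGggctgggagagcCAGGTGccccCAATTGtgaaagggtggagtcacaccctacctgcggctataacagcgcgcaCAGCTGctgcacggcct
Zp3: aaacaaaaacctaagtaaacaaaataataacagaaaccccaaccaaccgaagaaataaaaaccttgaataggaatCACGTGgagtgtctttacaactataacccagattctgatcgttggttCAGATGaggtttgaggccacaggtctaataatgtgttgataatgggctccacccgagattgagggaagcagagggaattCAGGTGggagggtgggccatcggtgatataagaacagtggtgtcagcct
Zp1 held 3 E-boxes, Zp2 held 7 and Zp3 held 3. Read along the gene, the letters CAGGTG occurred once in each, with first bases 79, 78 and 49 bases before the start. Zp2 also held CACCTG, which is CAGGTG on the other strand, with its first base 216 bases before the start. CAGATG occurred in Zp2 and Zp3, with first bases 129 and 128 bases before the start, CAGCTG in Zp1 and Zp2, and CACGTG in Zp3 alone of the 3. No matches overlapped, and neither NOBOX motif nor the LHX8 motif was found in any of the 3 windows. On either strand, CAGGTG also occurred in the windows of Oog1, called higher, and of H1f8, Rfpl4, Oosp1, Zar1 and Kit, not called. It was absent from those of Gdf9, Bmp15 and Mos, called lower, and of Pou5f1, Fgf8, Rspo2 and Dnmt1, not called. Its share over all windows was not counted, but an E-box of any letters occurs in 64.8% of them. A link between these letters and the changes was not tested.

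Gdf9 and Bmp15 encode growth factors of the TGF-beta family that the oocyte secretes to its granulosa cells, and both depend on Nobox in the ovary. Gdf9 went from 5239 and 4929 FPKM in NSN to 2575 and 2289 FPKM in SN, a change of -1.07 ± 0.08 (SE, limma adjusted p = 0.036). Bmp15 went from 2062 and 1857 FPKM to 1338 and 1221 FPKM, a change of -0.61 ± 0.08 (SE, limma adjusted p = 0.036). The fitted fall of Nobox lay between those of these genes. Its 95% interval, from -1.18 to -0.69, overlaps that of Gdf9, from -1.26 to -0.87, and that of Bmp15, from -0.82 to -0.41. Whether these falls are linked was not tested. In the window of Bmp15 a TAATTA began 228 bases and a TGATTG 48 bases before the start, motifs found in 5.2% and 13.6% of all windows. The window of Gdf9 held 1 E-box and, on the other strand, a TATAAA, and neither NOBOX motif.

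Mos, the kinase that holds the egg at metaphase, was at 274 and 239 FPKM in NSN and at 170 and 196 FPKM in SN. Its change of -0.49 ± 0.10 (SE) had a limma adjusted p of 0.045, which became 0.056 after median scaling. Oog1, an oocyte gene of a leucine-rich repeat family, was the member of the list that rose, from 231 and 244 FPKM to 298 and 300 FPKM, by 0.33 ± 0.07 (SE, limma adjusted p = 0.045). After median scaling the change in Oog1 was 0.18 and was not called (limma adjusted p = 0.18), and its counts are uncertain because related copies may share reads. Pou5f1, a pluripotency factor with a NOBOX motif (TAATTG, in 7.5% of all windows) 224 bases before its start, was at 13.96 and 13.69 FPKM in NSN and at 16.7 and 15.3 FPKM in SN. That change of 0.20 did not pass the test (limma adjusted p = 0.21), and 14.1% of the exonic bases of Pou5f1 lie in other annotated genes. Kit, the receptor for the granulosa cell's kit ligand, was at 15.98 and 17.19 FPKM in NSN and at 20.1 and 20.7 FPKM in SN, a change of 0.29 that was not called either (limma adjusted p = 0.10). The remaining genes of the list, Oosp1, Zar1, Fgf8, H1f8, Rspo2, Rfpl4 and Dnmt1, were not called.

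**Figure D3:**
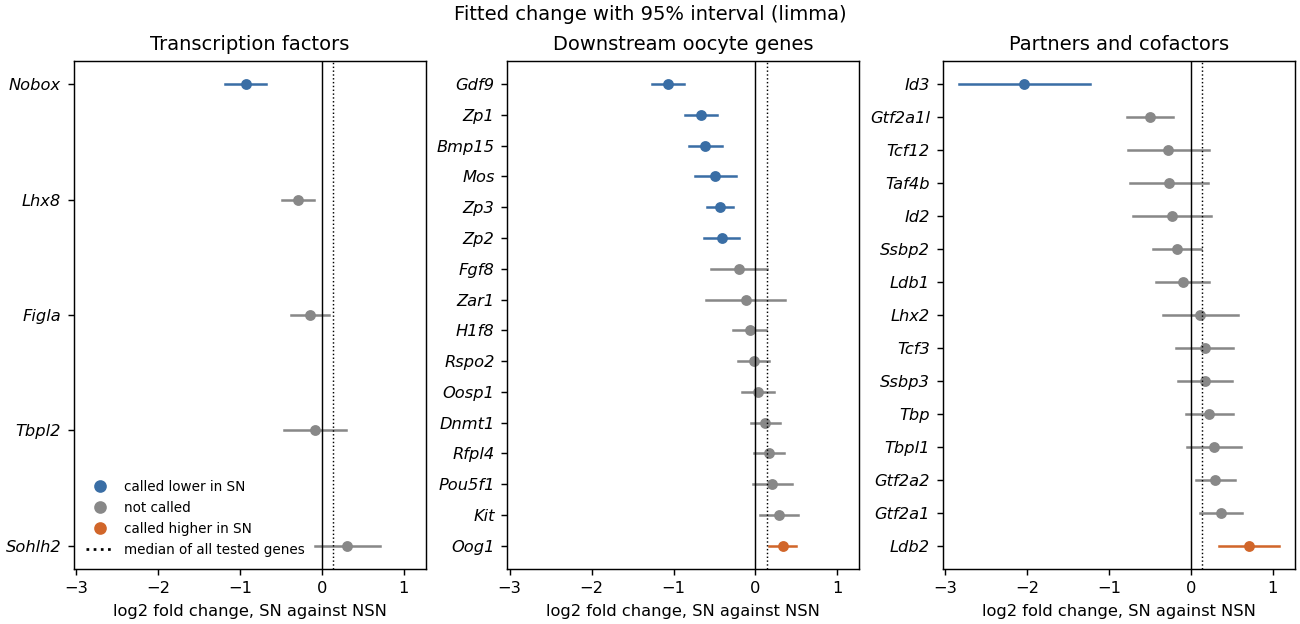
Fitted log2 fold change of SN against NSN with its 95% interval from limma for the 5 listed factors, the 16 downstream oocyte genes and the 15 tested partner and cofactor genes, with the median of all tested genes (0.14) as a dotted line. Called genes are in blue (lower in SN) and orange (higher), and the intervals of Nobox, the 6 downstream genes called lower and Id3 lie wholly below 0, as do those of Lhx8 and Gtf2a1l, which were not called.

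**Figure D4:**
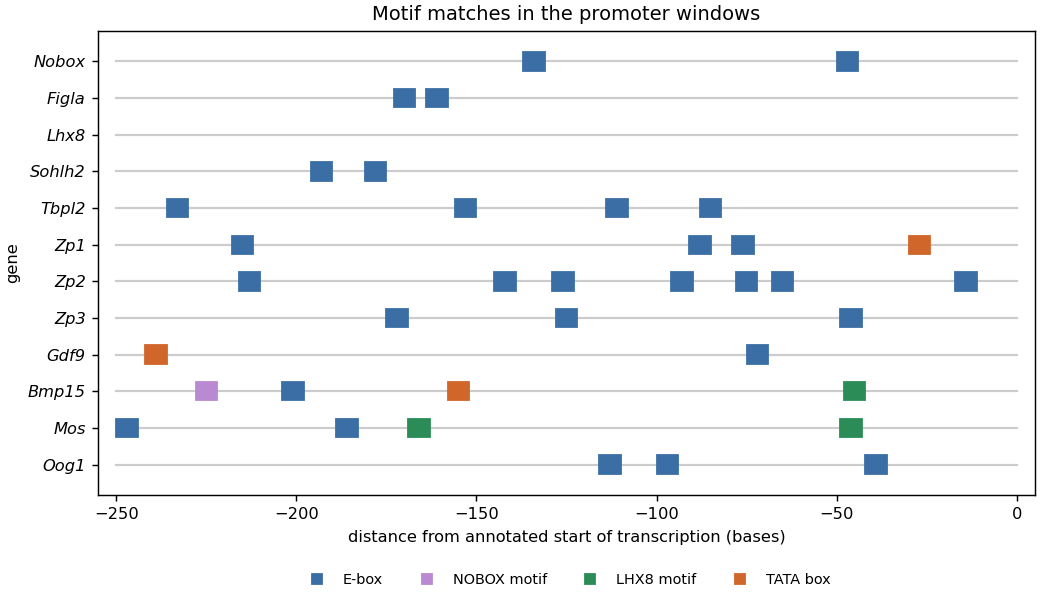
Places of motif matches in the 250 bases before the start for the 5 listed factors and the 7 downstream genes that were called, with the distance from the start in bases on the x axis. E-boxes appear in every window but that of Lhx8, and the windows of Bmp15 and Mos hold the LHX8 motif.

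The proteins that the factors work with were listed for 19 of 23 genes and tested for 15, of which 1 was lower, 1 was higher and 13 were not called. With 7.93% of all tested genes called, 2 of 15 is close to the background. Their median log2 fold change was 0.12, close to the 0.14 of all genes. Id3, a helix-loop-helix protein that lacks a DNA-binding region and takes bHLH partners out of action, fell. It was at 19.3 and 15.8 FPKM in NSN and at 5.96 and 2.48 FPKM in SN, a change of -2.03 ± 0.33 (SE, limma adjusted p = 0.036). The SN libraries of Id3 differed from each other by more than those of any factor, and 11.8% of its exonic bases lie in other genes. The E proteins that pair with bHLH factors were low. Tcf3 was at 4.50 and 3.60 FPKM in NSN and at 4.66 and 4.54 FPKM in SN (limma adjusted p = 0.45). Tcf12 was at 0.939 and 1.003 FPKM in NSN and at 0.91 and 0.55 FPKM in SN (limma adjusted p = 0.40). Tcf4 was below the filter, so no E protein was called.

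Among the cofactors of LIM homeobox proteins, Ldb2, which bridges LIM factors, rose from 3.16 and 4.08 FPKM in NSN to 5.97 and 6.41 FPKM in SN. The change in Ldb2 was 0.71 ± 0.15 (SE, limma adjusted p = 0.045), and it was 0.57 and not called after median scaling (limma adjusted p = 0.069). Its relative Ldb1 was at 3.20 and 3.20 FPKM in NSN and at 3.04 and 2.86 FPKM in SN (limma adjusted p = 0.64). Id3 and Ldb2 were no longer called without NSN replicate 1 or SN replicate 2, and Ldb2 was also not called without SN replicate 1, which left 0 calls in the list in the first and second cases and 1 in the last, whereas 4 were called without NSN replicate 2.

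For Tbpl2, the general factors around it were compared. TBP itself (Tbp) was at 6.06 and 6.68 FPKM in NSN and at 7.87 and 7.21 FPKM in SN, with a change of 0.23 that was not called (limma adjusted p = 0.24). Its FPKM was below that of Tbpl2 in every library, an order that rests on gene length: the authors’ length was 13091 bases for Tbp and 1379 bases for Tbpl2, and Tbp had the more read pairs, 1380 to 1759 against 255 to 328. The reads of Tbp are partly uncertain because 42.7% of its exonic bases lie in another gene, Pdcd2. The germ cell form of the TFIIA large subunit, Gtf2a1l, of whose exonic bases 26.0% lie in another annotated gene, was at 68.4 and 55.6 FPKM in NSN and at 45.2 and 42.0 FPKM in SN. Both SN values were below both NSN values, and the change of -0.50 ± 0.12 (SE) narrowly missed the threshold (limma adjusted p = 0.052). It was called when genes of at least 5 FPKM were tested (limma adjusted p = 0.019), in both fits on read pairs and without NSN replicate 2. The TFIIA subunits Gtf2a1 and Gtf2a2 went the other way, by 0.37 and 0.30, and were not called (limma adjusted p = 0.075 and 0.10). Gtf2a1 was at 23.0 and 26.3 FPKM in NSN and at 33.4 and 30.6 FPKM in SN. Gtf2a2 was at 81.6 and 84.5 FPKM in NSN and at 94.2 and 110.9 FPKM in SN. Gtf2a1 was called when genes of at least 5 FPKM were tested and in the fit on read pairs without median scaling. Taf4b, a subunit of TFIID enriched in germ cells, was at 2.47 and 2.49 FPKM in NSN and at 2.45 and 1.58 FPKM in SN (limma adjusted p = 0.39).

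Of the 8 oocyte markers, 6 were called lower in SN, beside 1.98% of all tested genes. Of these 6, 5 are genes of the downstream list already described. The other, Nlrp5, an egg protein needed for the early embryo, changed by -0.57 ± 0.11 (SE, limma adjusted p = 0.041). The summed granulosa level was lowest in NSN replicate 1, the library with the highest Nobox level, and its part in the result was not tested.

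Genes whose profile over the 4 libraries was most like that of a factor were ranked by the root mean square difference of log2(FPKM + 0.5), each gene centred on its own mean, among 5518 genes with a mean of at least 5 FPKM. Nearest to Nobox were Uqcrc1, a subunit of respiratory complex III, at 0.0427, Gm44650 at 0.0480 and Snrpb, a core spliceosomal protein, at 0.0536. Uqcrc1 was at 12.96 and 10.88 FPKM in NSN and at 6.49 and 6.02 FPKM in SN. Lhx8 was nearest to Gps1, a subunit of the COP9 signalosome, at 0.0060, then to Rimkla at 0.0122 and Clec10a at 0.0137. Gps1 was at 80.6 and 73.9 FPKM in NSN and at 62.7 and 63.9 FPKM in SN. Figla was nearest to Rrp36, a ribosome assembly factor, at 0.0078, then to Srgn at 0.0102 and Nsun4 at 0.0155, and Tbpl2 to Mfap1a at 0.0330, Cep57 at 0.0333 and Nup62 at 0.0360. None of these 12 genes belongs to the lists above, and with 4 libraries such a likeness is a description of these profiles alone.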

How the data were processed

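RNA was measured in 4 Smart-seq2 libraries, 2 NSN and 2 SN, of 15 oocytes each with 18 cycles of PCR. The labels state 3 samples per group, and 2 per group were analysed here. Per the submitters' notes and the study's methods, reads were trimmed with Trim Galore 0.6.10, mapped to GRCm39 with HISAT2 and counted on exons as read pairs with featureCounts, without strand and at a mapping quality of at least 10, and the authors deposited FPKM made with their own script. The authors ran DESeq2 on counts, which were not used here. Whole read pairs were recovered for 99.9% of genes (16844 genes, within 1e-05 of a whole number) from library totals set by 5 mitochondrial tRNA genes, and these give the Poisson 95% intervals, which cover counting error only.

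Log2(FPKM + 0.5) of genes with a mean of at least 0.5 FPKM was fitted with limma 3.58.1 in R 4.3.3 (lmFit, eBayes with a variance trend), two-sided, with Benjamini-Hochberg adjustment over all tested genes. The fits on read pairs used limma's voom. Read pairs, intervals and motifs were handled in Python 3.11.15 with pysam 0.24.0, scipy 1.17.1, pandas 2.3.3 and numpy 2.4.6, and plots were drawn with matplotlib 3.10.9. The limma fit was also run on simulated counts with the same spread for every gene and with larger changes than most seen here. That run does not show how reliable the calls in these libraries are. Sequences, positions and exonic lengths came from GRCm39 and a later GENCODE release than the authors used. A promoter window is the 250 bases before the start of the Ensembl canonical transcript, and each motif was searched on both strands.

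The factors and the gene lists were chosen with earlier results of these data known. The genes named are all factors, every called gene of the downstream, partner and marker lists, and a fixed set of their best known genes. Some other members of these lists are given beside them. The 3 genes most like each factor with a mean of at least 5 FPKM are also named. As alternatives the fit was repeated with a pseudocount of 0.1 or 1, without the filter on low values, with a mean of at least 5 FPKM, median and quantile scaling, no variance trend, a replicate block, voom, other thresholds and each library left out in turn.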

Additional observations from a re-analysis of the deposited data

How the results depend on the processing

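The alternatives were recomputed for the counts of called genes, the factors and the named genes. Nobox was called in 10 of 13 settings that kept all libraries, with a change from -1.09 to -0.93 and a limma adjusted p from 0.00038 to 0.092, and it was not called over all listed genes or without the variance trend (-0.93 in both) or when a fold of 2 was required (-0.93). Lhx8 passed at a mean of at least 5 FPKM (-0.29), with voom (-0.29) and with voom and median scaling (-0.45). No other factor changed its call, and the signs of all factors held in those settings. Leaving out a library leaves 1 in its group, which is then assumed to vary like the other group. Nobox ranged from -1.07 to -0.79, Lhx8 from -0.36 to -0.22, Figla from -0.21 to -0.09, Sohlh2 from 0.19 to 0.43 and Tbpl2 from -0.28 to 0.11, with the sign of Tbpl2 reversed without NSN replicate 1 (0.11) and without SN replicate 2 (0.03). With the annotated exonic lengths the mean level was 17.6 FPKM for Figla and 81.8 FPKM for Lhx8.

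The count of called factors, 1, was 0 over all listed genes, with no variance trend and at a fold of 2, 2 at a mean of at least 5 FPKM and with voom with or without median scaling, and 0 to 1 without a library. The downstream count, 7, was 0 over all listed genes and without the trend, 4 with median and 3 with quantile scaling, 1 at a fold of 2, and 0 to 5 without a library. The partner count, 2, was 0 over all listed genes and without the trend, 1 with median or quantile scaling and at a fold of 2, 4 with voom, and 0 to 4 without a library. Among all tested genes, 926 calls became 0 over all listed genes (4092 at an unadjusted p under 0.05) and without the trend (3449), 1496 at a mean of at least 5 FPKM, 257 with median and 230 with quantile scaling, 2292 with voom, 1704 with voom and median scaling and 76 at a fold of 2. Without a library it ranged from 0 to 1685, with 0 without NSN replicate 1 (2278 at an unadjusted p under 0.05), 1685 without NSN replicate 2, 148 without SN replicate 1 and 11 without SN replicate 2. The cause of these differences was not tested. With other pseudocounts and with median scaling, the 10 differences between factors inside a library moved by less than 1 SD between replicates. With a library left out, a move within that SD was fixed in advance, since the SD comes from the same libraries, so it shows nothing. Over all these settings 9 differences kept their sign, the exception being Figla minus Tbpl2, which ranged from -0.33 to 0.19. For the 7 pairs without overlap, the sign with a library left out was also fixed in advance, so it shows nothing. For the other named genes that were called, 69 values kept the call in settings with all libraries and 38 lost it, and without a library 13 kept and 23 lost it. For those that were not called, 4 values gained a call with all libraries and 1 without a library.

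Replicate numbers share only a number: the differences between replicates in NSN and SN correlated at -0.07 over 11672 genes. With the replicate number as a block, 422 genes were called, Nobox among them (-0.93, limma adjusted p = 0.041), as were 5 downstream genes and 1 partner. Depth limits Sohlh2 most, with 90 to 135 read pairs a library.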
